A study of Homo sapiens with 6 samples.

Results

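Homologous recombination copies sequence from a sister chromatid to mend a DNA double-strand break, and the Fanconi anemia pathway uses part of the same machinery to unhook crosslinks between DNA strands at stalled replication forks. The 38 genes described here encode both pathways and were chosen by name, from what their products are known to do: 5 genes of the BRCA1-PALB2-BRCA2 axis, 4 of end resection, 8 strand exchange genes, 4 of double Holliday junction dissolution, 8 of the Fanconi core complex, the 2 subunits of the FANCD2-FANCI clamp, 3 structure-specific nuclease genes and 4 checkpoint kinases. All 38 were found, and all 38 passed the filter on low counts, among 15223 genes tested. Messenger RNA came from Rh30, an established line of human alveolar rhabdomyosarcoma, a tumour of muscle-like cells, which is positive for the PAX3-FOXO1 fusion in both groups. One group was labelled as control (3 libraries) and the other as a knockdown of DDX5, an RNA helicase, written siDDX5 (3 libraries), each described as biological replicates 1 to 3. The knockdown reagent, its dose, the time of harvest and what the control cells received were not given in the sources used here. A single cell line was used.

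In these pathways BRCA1 and BARD1 act at the break, the MRE11-RAD50-NBN complex with RBBP8 (CtIP) starts to trim its ends, PALB2 brings in BRCA2, and strand exchange proteins pair the broken end with the matching sequence. In crosslink repair, FANCM and the core complex recognise the lesion, the FANCL subunit of the core attaches ubiquitin to FANCD2 and FANCI, and SLX4 gathers nucleases that cut around the crosslink. Many of these genes are transcribed most in dividing cells, and carriers of damaging variants in several of them are prone to cancer.

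The libraries held 18202402 to 26156858 estimated counts. DDX5 itself was 2.71-fold lower in siDDX5 cells, with 1352, 1434 and 1137 counts scaled to a common total (CPM) in control replicates 1 to 3 and 549.5, 504.5 and 395.9 CPM in siDDX5 replicates 1 to 3 (log2 fold change -1.44, SE 0.15, edgeR adjusted p 0.0106). The 8 rhabdomyosarcoma identity genes checked, among them MYOD1 and DES, were all expressed, and 0 of them were called. Of 6 markers of other cell types, EPCAM, KRT18 and ALB lay at or near 0, PTPRC lay between 0.541 and 2.31 CPM, and PECAM1 and COL1A1 lay between 10.3 and 21.5 CPM in every library, with 0 called. In bulk RNA, fewer cells that transcribe a gene and less RNA per cell cannot be told apart.

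No recombination or Fanconi gene changed past the threshold. The calling threshold was 0.05 for edgeR's quasi-likelihood p after adjustment over all genes tested. By that rule 0 of the 38 were called, where 0.164% of all genes were. With so few calls over all genes, that 0 says little about a list of 38. With the replicate number as a block, which raised the calls over all genes from 25 to 395 (2.59% of all genes), 0 of the 38 were called as well. The smallest adjusted p of any of the 38 was 0.253 without the block and 0.0825 with it. DESeq2 called 0 of them, where it called 2.12% of all genes. At shares of 2.59% and 2.12% over all genes, a 0 also says little about 38 genes. Limma-trend called 0 of them too, but it called only 1 of 14871 genes in all, so that 0 says little. The log2 fold changes, siDDX5 minus control, ran from -0.45 for RAD50 to 0.17 for NBN, so 0 of the 38 lay beyond a 1.5-fold difference, which 5.02% of all genes tested exceeded. For 31 of the 38 (81.6%) the whole 95% interval of the difference lay within 1.5-fold, against 53.8% of all genes. The intervals of the other 7 (FANCB, PALB2, RAD50, RAD52, RAD54L, RMI1 and RMI2) reached past a 1.5-fold lower level and left room for a larger difference. All of these intervals are from the fit without the block. With the block the SE of each of the 7 was smaller, such as 0.09 instead of 0.20 for RMI1 and 0.11 instead of 0.20 for RMI2.

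**Figure D1:**
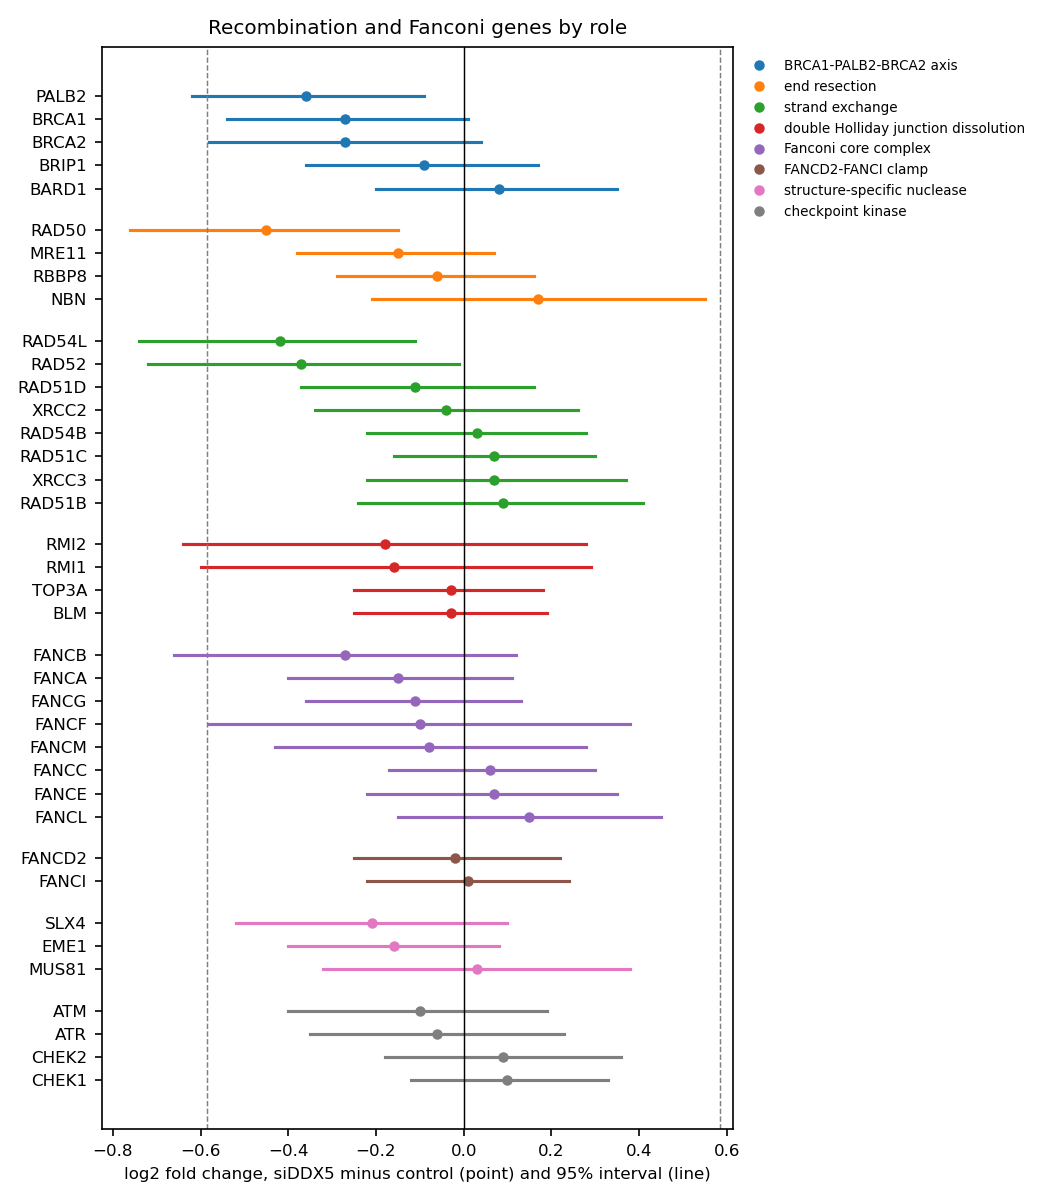
The x axis shows the log2 fold change between siDDX5 and control cells (point) with its 95% interval (line) from the edgeR fit on 3 libraries per group; each gene is a row, coloured by role, and dashed lines mark a 1.5-fold difference. All 38 points lie between -0.45 and 0.17, and the intervals of PALB2, RAD50, RAD52 and RAD54L are the ones that stay below 0.

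Below the calling threshold the differences leaned one way. The level was lower in siDDX5 cells for 25 of the 38 genes and higher for 13, with a median log2 fold change of -0.07, while 50.4% of all genes were lower. At an unadjusted p under 0.05, 4 of the 38 were lower (PALB2, RAD50, RAD52 and RAD54L; 10.5%, against 6.0% of all genes) and 0 were higher (against 5.37% of all genes). With the replicate block the lower ones were 6, with BRCA1 and SLX4 added (15.8%, against 10.3% of all genes), and 0 were higher (against 10.2%). All 3 siDDX5 libraries lay below all 3 control libraries for 6 genes (PALB2, MRE11, RAD50, RAD52, RAD54L and EME1; 15.8%, against 9.16% of all genes), and above them for 0 (against 8.87%). These shares are a description of a named list, with no test of the list as a whole.

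**Figure D2:**
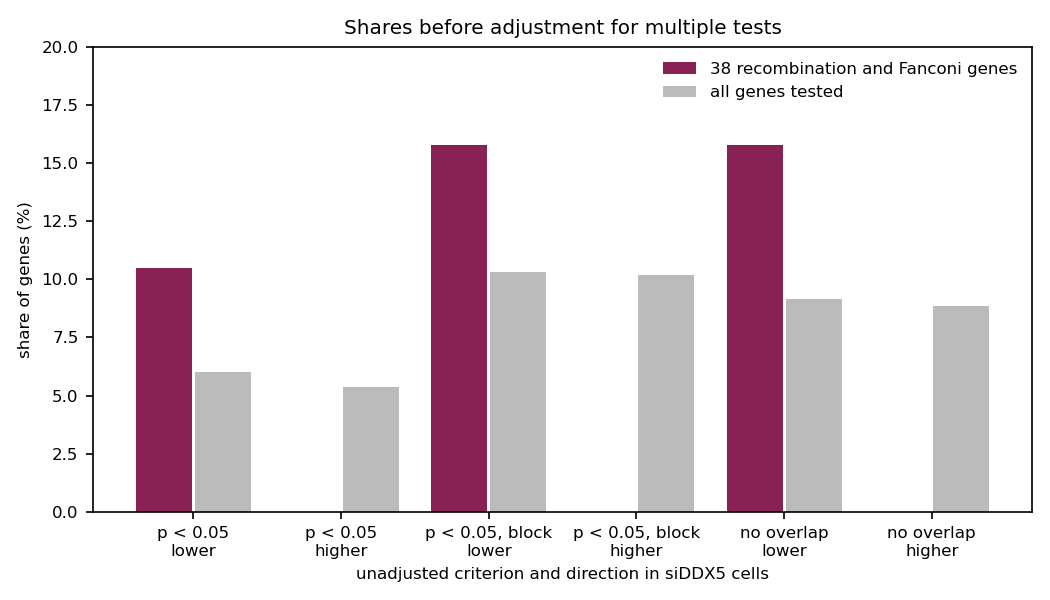
Bars show the share of genes in percent, from 0, that met each unadjusted criterion in one direction, for the 38 recombination and Fanconi genes and for all 15223 genes tested. For the 38 genes the 3 bars for lower levels stand at 10.5%, 15.8% and 15.8%, and those for higher levels at 0.

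The size of this lean moved with single libraries. The library siDDX5 replicate 2 was the lowest of the 6 for 17 of the 38 genes (44.7%, where it was the lowest for 22.8% of all genes tested), and the genes lay a median of -0.125 on the log2 scale below their means there. The library control replicate 3 was the highest for 12 of them (31.6%, against 15.5% of all genes). Without siDDX5 replicate 2 the median log2 fold change of the 38 genes was -0.02, and 22 were lower. Without control replicate 3 the median was also -0.02, with 22 lower. Without siDDX5 replicate 1 the lean was larger, with a median of -0.10 and 28 lower, and 28 were also lower without control replicate 2. Over all genes, 48.4% to 50.6% were lower in the 6 fits that left out 1 library. In each of those fits 2 to 5 of the 38 were lower at an unadjusted p under 0.05 and 0 were higher. Over all genes 4.15% to 7.05% were lower by that rule and 3.7% to 6.08% higher. Without siDDX5 replicate 2 and without control replicate 3 the lower ones were 3 of the 38 each, against 5.02% of all genes. Without siDDX5 replicate 3 they were 2 of the 38, against 4.54% of all genes. The genes RAD50 and RAD54L had an unadjusted p under 0.05 in all 6 of these fits. By overlap the absence of higher genes did not hold. With 1 library left out, 0 to 3 of the 38 were higher without overlap, against 12.4% to 15.1% of all genes. Those lower without overlap were 7 to 13 of the 38, against 13.3% to 16.8% of all genes.

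**Figure D3:**
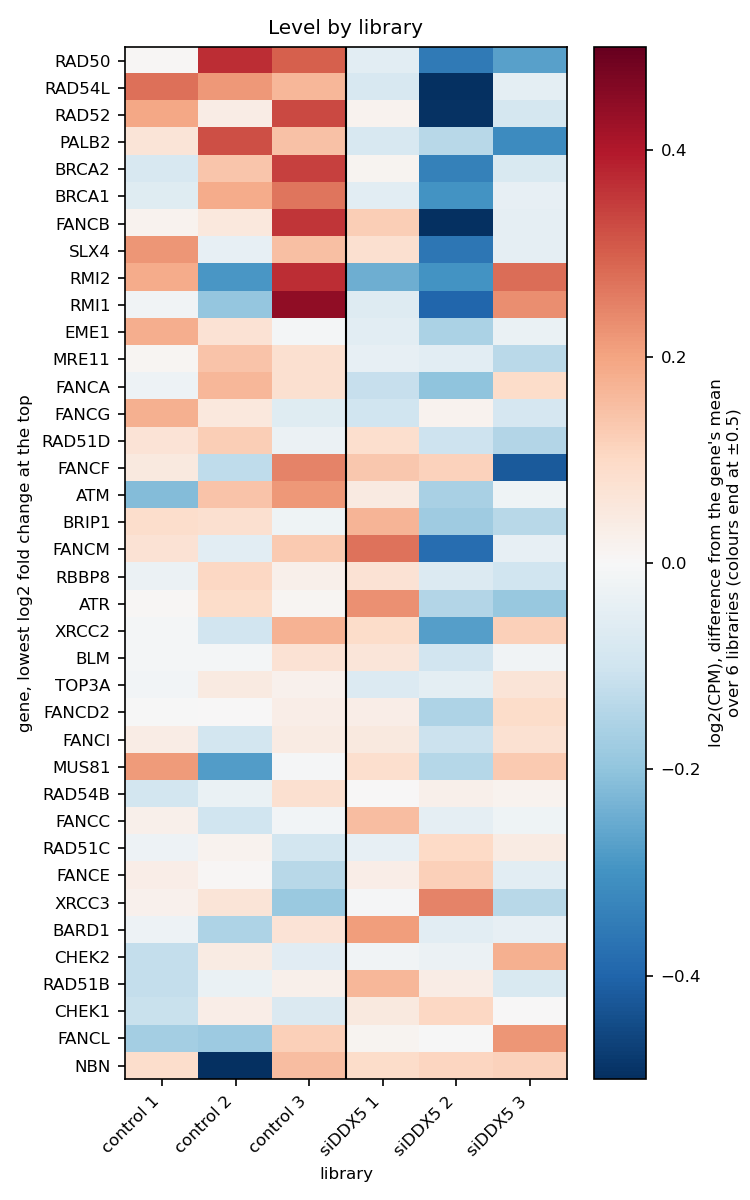
Each row is a gene and each column a library; colour gives the difference in log2(CPM) from that gene's mean over the 6 libraries, and the colour scale ends at ±0.5. The column of siDDX5 replicate 2 holds the lowest value for 17 of the 38 genes, and control replicate 3 the highest for 12.

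Proliferation genes were read beside this list, since many recombination genes are transcribed in dividing cells. Of 20 such genes 0 were called without the block and 1 with it, MCM3, a subunit of the replicative helicase, whose levels were 328.7, 289.6 and 290.3 CPM in control and 211.3, 210.3 and 213.9 CPM in siDDX5 libraries (log2 fold change -0.52, adjusted p 0.0781 without and 0.0232 with the block in edgeR). The median log2 fold change of the 20 was -0.02. At an unadjusted p under 0.05, 3 of the 20 were lower (15%, against 6.0% of all genes) and 0 were higher. With the block 5 were lower (MKI67, PCNA, MCM2, MCM3 and MCM5; 25%, against 10.3% of all genes) and 1 was higher (CCNA2; 5%, against 10.2%). MKI67, a marker of cycling cells, stood at 938.7, 865.2 and 856.2 CPM in control and at 861.8, 558.8 and 615.9 CPM in siDDX5 libraries. Both MKI67 and MCM3 had their lowest value in siDDX5 replicate 2. In that same library MCM4, CCNB1, CDK1, RRM2, AURKA and CDC20 had their highest value, so the proliferation genes did not move together there. The part of proliferation in the levels of the 38 genes was not tested.

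Set on a scale per transcript length (TPM, which corrects for length and sets every library to the same total), the 38 genes spanned a wide range in these cells. The highest mean over the 6 libraries was 139.6 TPM for FANCI, above 92.9% of all genes tested, followed by FANCA with 125.4 TPM and RAD51C with 97.4 TPM. The lowest were SLX4 with 9.01 TPM, FANCE with 8.82 TPM and FANCF with 3.02 TPM. FANCF still had at least 66 estimated counts in every library. The median of the 38 genes was 34.1 TPM, against 17.4 TPM for all genes tested. The RNA levels of the clamp genes were unequal: FANCD2, which pairs with FANCI, had a mean of 45.8 TPM. Each TPM value sums all transcripts of a gene, including those not annotated as protein coding. In control cells such transcripts held 33.6% of FANCI counts, 25.9% of FANCA, 28.3% of RAD51C and 5.69% of FANCD2 counts.

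**Figure D4:**
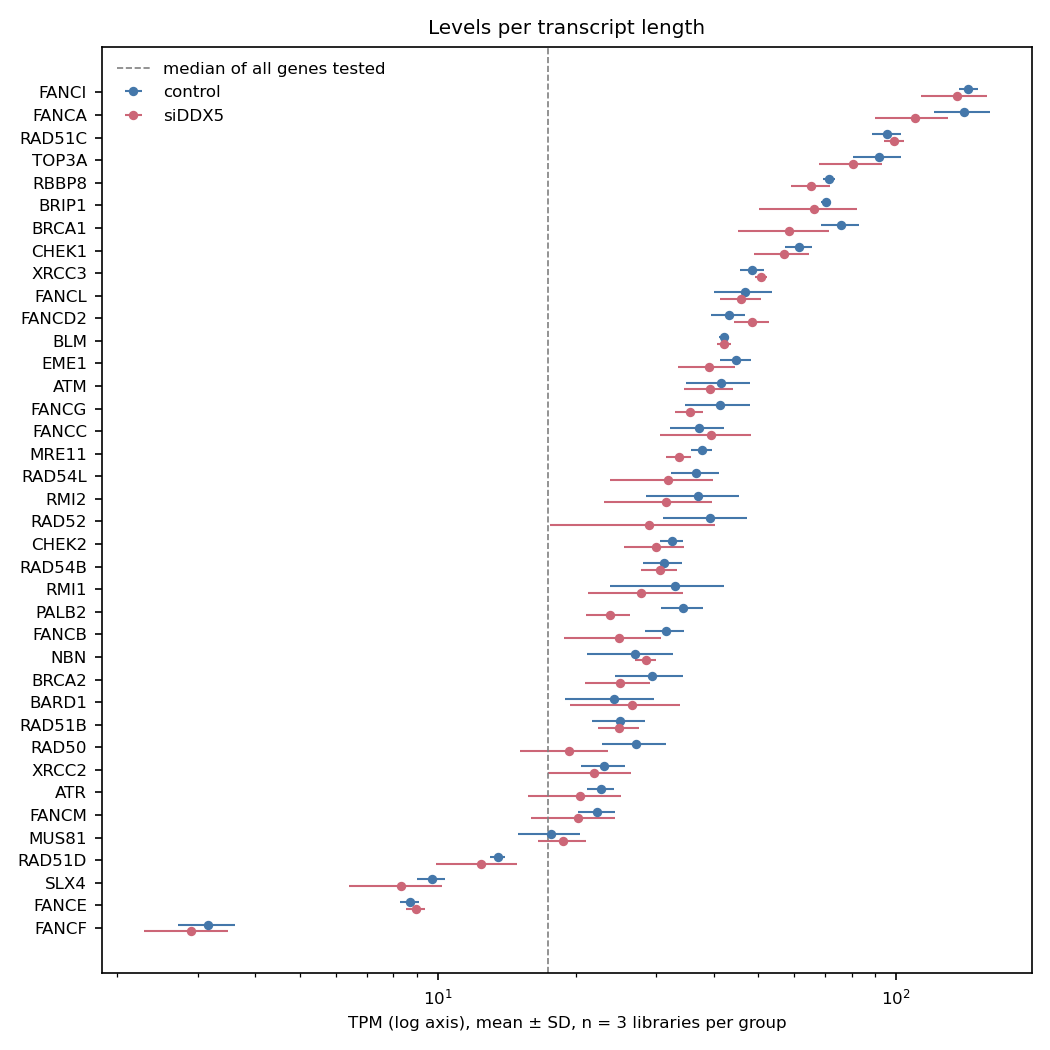
Points show the mean TPM of each gene in control and siDDX5 cells on a log axis, with lines for the SD over 3 libraries, in the order of the mean over all 6; the dashed line marks the median of all genes tested, 17.4 TPM. FANCI and FANCA lead at 139.6 and 125.4 TPM, and FANCF is lowest at 3.02 TPM.

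In the BRCA1-PALB2-BRCA2 axis 4 of 5 genes had lower levels in siDDX5 cells, with a median log2 fold change of -0.27, and 0 passed the test. PALB2, the bridge between BRCA1 and BRCA2, stood at 44.5, 53.2 and 47.1 CPM in control replicates 1 to 3 and at 40.3, 38.6 and 34.2 CPM in siDDX5 replicates 1 to 3. The groups did not overlap, and the highest siDDX5 library was replicate 1. The means were 48.2 ± 4.48 and 37.7 ± 3.14 CPM (SD, n = 3 each), with a log2 fold change of -0.36 (SE 0.12, unadjusted p 0.0142, adjusted p 0.305 in edgeR). PALB2 was the only one of the 38 genes to be called in any of the alternative fits, at a log2 fold change of -0.38 and an adjusted p of 0.0484 when the replicate block was joined with a correction for GC content; the replicate block alone gave 0.0942. That fit called 3.51% of all genes, so 1 of 38 (2.63%) did not exceed the share over all genes.

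BRCA1, the ubiquitin ligase that gives the axis its name, had 130.5, 155.0 and 164.0 CPM in control and 131.3, 110.6 and 132.2 CPM in siDDX5 libraries. Its groups overlapped, since control replicate 1 lay below siDDX5 replicates 1 and 3. The log2 fold change was -0.27 (SE 0.12, 95% interval -0.54 to 0.01, adjusted p 0.461). BRCA2, which acts with PALB2 on resected ends, had 95.6, 111.4 and 128.1 CPM in control and 102.2, 80.1 and 95.9 CPM in siDDX5 libraries. Here too control replicate 1 was low and siDDX5 replicate 1 high, and the log2 fold change was -0.27 (SE 0.14, adjusted p 0.506). It ran from -0.36 without control replicate 1 to -0.16 without control replicate 3, and was -0.17 without siDDX5 replicate 2. BARD1, the partner that stabilises BRCA1, had the highest log2 fold change of this role. It had 36.1, 33.0 and 38.5 CPM in control and 42.5, 35.4 and 35.7 CPM in siDDX5 libraries, with a log2 fold change of 0.08 (SE 0.12). The helicase gene BRIP1 was at -0.09. BRCA1 and its partner BARD1 therefore had estimates of opposite sign, each with an interval that included 0.

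Among the end resection genes RAD50 had the lowest log2 fold change of all 38. RAD50, the ATPase that tethers broken ends in the MRE11-RAD50-NBN complex, stood at 35.8, 46.1 and 43.9 CPM in control and at 34.4, 27.9 and 29.5 CPM in siDDX5 libraries. The groups did not overlap, but control replicate 1 lay only just above siDDX5 replicate 1. The log2 fold change was -0.45 (SE 0.14, unadjusted p 0.00832, adjusted p 0.253). RAD50 occupies bases 132556019 to 132646344 of chromosome 5 (GRCh38, plus strand), and 79.7% of its exon bases are shared with AC116366.3, a second annotated protein-coding gene on the same strand. AC116366.3 was estimated at 16.3, 9.58 and 12.2 CPM in control and at 14.9, 15 and 13.4 CPM in siDDX5 libraries. Control replicate 1 was thus the lowest control library for RAD50 and the highest for AC116366.3. When the counts of both genes were added, the sums were 52.1, 55.7 and 56.1 CPM in control and 49.3, 42.9 and 42.9 CPM in siDDX5 libraries. The groups still did not overlap, and the log2 fold change was smaller, -0.28 (SE 0.11, adjusted p 0.368).

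RAD50 also differed from most of the list in which of its transcripts carried the counts. Its leading transcript, RAD50-209, is annotated as a target of nonsense-mediated decay, the pathway that removes messages with early stop codons, and held 55.1 ± 4.64% of RAD50 counts in control and 61.3 ± 1.37% in siDDX5 cells (SD, n = 3 each). RAD50-201, which is annotated as protein coding, held 20.3 ± 3.82% and 13.3 ± 2.96%. The usage test did not call RAD50 (adjusted p 1.0). BLM had a leading transcript of the same annotated type, BLM-211, with 32.8 ± 1.13% and 37.2 ± 3.83% of its counts.

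The other genes of this role differed less. MRE11, the nuclease of the complex, had 57.5, 63.1 and 60.5 CPM in control and 55.5, 55.1 and 52.0 CPM in siDDX5 libraries (log2 fold change -0.15, SE 0.10, adjusted p 0.592), and the groups did not overlap. NBN, the third subunit, had the highest log2 fold change of all 38, 0.17 (SE 0.17). Its levels were 53.6, 34.4 and 56.1 CPM in control and 53.8, 54.4 and 54.6 CPM in siDDX5 libraries. Control replicate 2 stood apart below the other 5 libraries, and without it the log2 fold change of NBN was -0.01. RBBP8 was at -0.06 (SE 0.10).

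The 8 strand exchange genes split into 4 lower and 4 higher, with a median log2 fold change of -0.01. The lower end was held by RAD54L and RAD52. RAD54L, a translocase that helps the broken end invade its template, had 45, 43.2 and 41.7 CPM in control and 35.2, 25.8 and 35.9 CPM in siDDX5 libraries. The groups did not overlap, and siDDX5 replicate 2 was the lowest. The log2 fold change was -0.42 (SE 0.14, unadjusted p 0.014, adjusted p 0.303; 0.0825 with the replicate block). On the TPM scale its means were 36.6 ± 4.4 and 31.8 ± 8.09 (SD, n = 3 each), and length-scaled TPM counts or limma-trend gave smaller differences, down to -0.17. The unadjusted p was 0.342 with edgeR on length-scaled TPM counts and 0.295 with limma-trend. Its leading transcript RAD54L-201 held 83.7 ± 3.73% of the counts in control and 72.1 ± 6.01% in siDDX5 cells (SD, n = 3 each). The usage test on all libraries did not call RAD54L. RAD52, which anneals single strands, had 24.3, 21.8 and 26.7 CPM in control and 21.5, 15.1 and 20 CPM in siDDX5 libraries. Its siDDX5 replicate 1 was just under control replicate 2, and the log2 fold change was -0.37 (SE 0.16, unadjusted p 0.0443, adjusted p 0.425). Without siDDX5 replicate 2 it was -0.23 (unadjusted p 0.141), and without siDDX5 replicate 1 it was -0.47.

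RAD51B, RAD51C, RAD51D, XRCC2 and XRCC3, which form complexes with one another, had log2 fold changes between -0.11 and 0.09. By log2 fold change RAD51B was the highest of this role, though its counts were the lowest, with 9.6, 10.2 and 10.6 CPM in control and 11.7, 10.7 and 9.9 CPM in siDDX5 libraries. Its log2 fold change was 0.09 (SE 0.14), and limma-trend on TPM gave -0.01. RAD51C and XRCC3 were at 0.07, XRCC2 at -0.04 and RAD51D at -0.11. RAD54B was at 0.03. Of its exon bases, 59.1% are shared with FSBP on the same strand, and the sum of both genes gave a log2 fold change of 0.16 (SE 0.10, adjusted p 0.592).

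All 4 dissolution genes, which take double Holliday junctions apart without crossing over, had estimates slightly below 0. RMI2 had the lowest log2 fold change, -0.18 (SE 0.20; -0.03 without control replicate 3 and -0.37 without siDDX5 replicate 3), with 26.7, 19.2 and 30.3 CPM in control and 19.8, 19.1 and 28.5 CPM in siDDX5 libraries. In each group the replicate 3 library was the highest and replicate 2 the lowest. RMI1 followed the replicate numbers even more closely, with 37.2, 33.0 and 51.2 CPM in control and 36.0, 28.6 and 44.3 CPM in siDDX5 libraries (log2 fold change -0.16, SE 0.20). The spread within each group, 1.55-fold from lowest to highest, was larger than the difference between the groups. For both genes, however, each siDDX5 library lay below the control library of the same number. With the replicate block edgeR gave -0.15 (SE 0.09, unadjusted p 0.129) for RMI1 and -0.18 (SE 0.11, unadjusted p 0.161) for RMI2. With the block and GC correction RMI1 was lower at an unadjusted p under 0.05, as were 11.8% of all genes. The BLM helicase had 76.3, 76.3 and 80.7 CPM in control and 80.2, 72.0 and 76.0 CPM in siDDX5 libraries. Its log2 fold change was -0.03 (SE 0.10), as was that of the topoisomerase TOP3A, and these were the highest log2 fold changes of this role.

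In the Fanconi core complex 5 of 8 genes were lower and 3 higher, with a median of -0.09. FANCB, a subunit that works beside FANCL, had the lowest log2 fold change. It had 28.7, 29.4 and 36.4 CPM in control and 30.9, 20 and 27.5 CPM in siDDX5 libraries, with a log2 fold change of -0.27 (SE 0.17, adjusted p 0.594). The groups overlapped through siDDX5 replicate 1, and the log2 fold change ran from -0.11 without siDDX5 replicate 2 to -0.41 without siDDX5 replicate 1. The leading FANCB transcript, with 64.2% of its counts in control and 70.1% in siDDX5 cells, has no identifier in the primary-assembly annotation. With the join by that annotation alone the log2 fold change was -0.51 (unadjusted p 0.0344, adjusted p 0.405). FANCL, the ubiquitin ligase of the complex, had the highest log2 fold change, with 24.0, 23.8 and 29.3 CPM in control and 27.3, 27.0 and 31.5 CPM in siDDX5 libraries. Its log2 fold change of 0.15 (SE 0.13) became -0.02 with limma-trend on TPM. The remaining estimates were -0.15 for FANCA, -0.11 for FANCG, -0.10 for FANCF, -0.08 for FANCM, the subunit that anchors the complex to DNA, 0.06 for FANCC and 0.07 for FANCE. Each of these 6 intervals included 0.

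The clamp that the core complex modifies stood almost level by counts. FANCD2 had 75.0, 75.2 and 76.9 CPM in control and 76.9, 67.6 and 80.1 CPM in siDDX5 libraries. Its log2 fold change was -0.02 (SE 0.10), with a 95% interval of -0.25 to 0.22. The sign depended on how transcript length entered: length-scaled TPM counts gave 0.22 (unadjusted p 0.092) and limma-trend 0.17, and the mean TPM was 43.1 ± 3.65 in control and 48.6 ± 4.19 in siDDX5 cells (SD, n = 3 each). FANCI had 187.3, 171.5 and 187.9 CPM in control and 188.8, 169.4 and 192.8 CPM in siDDX5 libraries. In each group replicate 2 was the lowest, and the log2 fold change was 0.01 (SE 0.10; -0.10 with limma-trend on TPM).

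Of the nuclease genes, SLX4, the scaffold that gathers several nucleases, had the lowest log2 fold change. It had 49.3, 41.1 and 46.9 CPM in control and 44.7, 32.9 and 41.0 CPM in siDDX5 libraries, with replicate 2 the lowest in each group. The log2 fold change was -0.21 (SE 0.14, adjusted p 0.601; unadjusted p 0.162, and 0.039 with the replicate block). It was -0.09 without siDDX5 replicate 2 and -0.31 without siDDX5 replicate 1. MUS81, the catalytic subunit of the MUS81-EME1 nuclease, had 21.1, 15 and 18.1 CPM in control and 19.3, 16.5 and 19.9 CPM in siDDX5 libraries, with a log2 fold change of 0.03 (SE 0.16). Its partner EME1 had 46.6, 43.2 and 40.8 CPM in control and 39.7, 36.9 and 40.2 CPM in siDDX5 libraries. Those groups did not overlap, and the log2 fold change was -0.16 (SE 0.11, adjusted p 0.607).

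The checkpoint kinases, which signal damage to the cell cycle, had estimates between -0.10 and 0.10. ATM, the kinase activated by double-strand breaks, had 63.3, 81.2 and 85.4 CPM in control and 75.9, 65.7 and 72.5 CPM in siDDX5 libraries, a log2 fold change of -0.10 (SE 0.13). The siDDX5 libraries lay inside the range of the control libraries. ATR, activated by single-stranded DNA at stalled forks, had 68.6, 72.8 and 68.8 CPM in control and 80.1, 61.7 and 60.0 CPM in siDDX5 libraries, a log2 fold change of -0.06 (SE 0.13). Here siDDX5 replicate 1 was the highest and the other siDDX5 libraries the lowest of the 6. CHEK1, the target of ATR, had 51.1, 56.5 and 52.5 CPM in control and 57.2, 59.4 and 55.3 CPM in siDDX5 libraries. Its log2 fold change was 0.10 (SE 0.10), and it was -0.06 with length-scaled TPM counts. CHEK2, the target of ATM, was at 0.09 (SE 0.12).

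Transcript usage, the make-up of a gene's counts across its transcripts, was tested separately. With edgeR's diffSpliceDGE and a Simes test per gene, 1 of the 37 genes with at least 2 transcripts tested, FANCC, had an adjusted p under 0.05 (2.7%, against 1.59% of all genes tested for usage). With the replicate block 2 of the 37 did, FANCC and XRCC3 (5.41%, against 1.21% of all genes). Both calls came from transcripts of low count that met the filter on low counts through 1 group alone, so these counts of genes support nothing further. FANCC, a core complex subunit, occupies bases 95099054 to 95426796 of chromosome 9 (GRCh38, minus strand). Its adjusted p for usage was 0.00285 without and 0.0044 with the block. The call came from FANCC-212, a processed transcript of 652 bases, which was listed at 0 counts in all 3 control libraries and at 25, 15.3 and 10.4 counts in siDDX5 replicates 1 to 3. Its share of all FANCC counts there was 1.42 ± 0.442% (SD, n = 3), so the gene total of 58.5 ± 2.58 and 61.1 ± 4.68 CPM (SD, n = 3 each) hardly depended on it. A library count of 0 allows up to 3 counts, which is 0.1147 to 0.1411 CPM in the control libraries.

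FANCC-212 starts from a first exon of 19 bases (positions 95426724 to 95426742), with 109014 bases between it and the first exon of FANCC-201, the leading protein-coding transcript, at 95317526 to 95317709. The stretches that tell the pair apart are shown 5′ to 3′, because the estimate of FANCC-212 hangs on them, with capitals for the bases of the short first exon and lower case elsewhere.
FANCC-212: CAGCAGACAGCTTTTgctgctgtgaaggga
FANCC-201: ttcagtgctggacaggctgctgtgaaggga
Both end in the same 15 bases of the second exon. In FANCC-201 that exon begins further upstream, so the bases before the shared stretch belong to it. Only 19 of the 622 words of 31 bases in FANCC-212 occur in no other FANCC transcript, and all of them lie within its first 49 bases. With a filter of at least 50 mean counts per transcript FANCC-212 was not tested, and the adjusted p of FANCC was 1.0. The call was also lost without control replicate 1 (0.0759), control replicate 2 (0.0948), siDDX5 replicate 1 (0.0529) or siDDX5 replicate 2 (0.0668), and kept without either replicate 3 library.

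XRCC3, a strand exchange gene on chromosome 14 (positions 103697609 to 103715504, minus strand), had an adjusted p for usage of 0.0881 without and 0.013 with the replicate block. The transcript behind it was XRCC3-202, annotated as protein coding, with 73.6, 94.6 and 43.0 counts in control and 13.5, 0 and 0 counts in siDDX5 libraries. It held 7.14 ± 2.61% of XRCC3 counts in control and 0.53 ± 0.918% in siDDX5 cells (SD, n = 3 each), while the gene total stood at 42.7, 44.0 and 37.0 CPM in control and 41.9, 50 and 38.3 CPM in siDDX5 libraries. All 639 bases of the first exon of XRCC3-202 (positions 103711466 to 103712104) lie within exons of KLC1, a kinesin light chain gene on the opposite strand. Of its words of 31 bases, 441 occur in no other XRCC3 transcript, and 0 of those are absent from the reverse complement of the KLC1 transcripts. KLC1 was at 153.5, 146.5 and 151.5 CPM in control and at 130.1, 110.0 and 125.2 CPM in siDDX5 libraries (log2 fold change -0.31, adjusted p 0.309), with no overlap. The kit keeps the strand, but whether the counting used it is not given in the sources used here, so reads of XRCC3-202 and of KLC1 cannot be told apart. Its adjusted p ranged from 0.000135 to 0.497 when 1 library was left out.

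The next smallest adjusted p values for usage were 0.423 for XRCC2 and 0.467 for CHEK1. In XRCC2 the processed transcript XRCC2-202 had 10.1, 0 and 0 counts in control and 18.4, 21.8 and 32.2 counts in siDDX5 libraries. In CHEK1 the transcript CHEK1-208, of 562 bases, had 32.9, 18.2 and 31.6 counts in control and 5.6, 0 and 0.8 counts in siDDX5 libraries. Neither gene passed the test. Each transcript met the filter on low counts only through the group where it was high, so its lack of overlap between the groups supports nothing further. The leading transcript of ATM changed between libraries of a group: ATM-203 held 34.3 ± 14.7% of the counts in control and 57.4 ± 18.2% in siDDX5 cells (SD, n = 3 each), and the usage test did not call it.

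**Figure D5:**
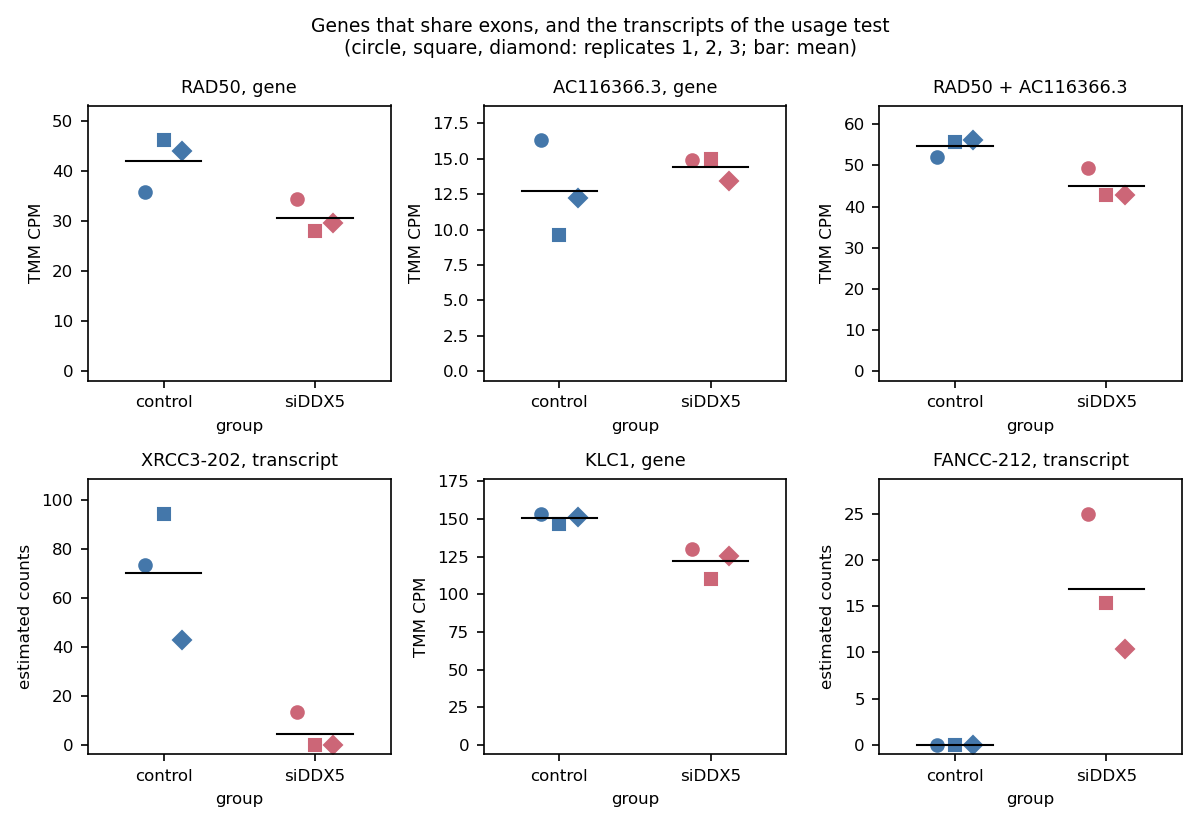
The panels show the 3 control and 3 siDDX5 libraries as points (symbols mark the replicate number) with the mean as a bar, in CPM for genes and in estimated counts for transcripts. Control replicate 1 is the lowest control library for RAD50 at 35.8 CPM and the highest for AC116366.3 at 16.3 CPM; XRCC3-202 and KLC1 are both lower in all siDDX5 libraries, and FANCC-212 is at 0 in all control libraries.

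Exons of 20 of the 38 genes overlap those of another gene in the tables, 4 genes on the same strand and 16 on the opposite one. The share over all genes was not counted. Some of the overlapping genes were hardly expressed, such as GAS2 beside FANCF at a mean of 0.611 CPM. The largest opposite-strand share was 76.7% of the exon bases of XRCC3, with KLC1 at 136.1 CPM, so the gene level of XRCC3 carries this limit. Next came 25.1% of the exon bases of RAD54L, with LRRC41 at a mean of 102.6 CPM, and 23.6% of those of FANCA, with ZNF276 at 43.3 CPM. For MUS81 the share was 13.9%, with CFL1 at 405.8 CPM, and for EME1 16.4%, with LRRC59 at 344.4 CPM, both far above the levels of the recombination genes. The part of these neighbours in the counts was not tested. Transcripts annotated for nonsense-mediated decay held 8.22 ± 0.539% of the summed counts of the 38 genes in control and 7.06 ± 0.471% in siDDX5 cells (SD, n = 3 each). The groups met in replicate 1, where both libraries stood at 7.6%. Without RAD50 the shares were 7.19 ± 0.515% and 6.18 ± 0.417%. Over all genes joined they were 2.72 ± 0.14% and 2.61 ± 0.122%. Processed transcripts, a class with no open reading frame annotated, held 1.53 ± 0.125% of the counts of the 38 genes in control and 1.76 ± 0.0973% in siDDX5 cells, against 2.63 ± 0.158% and 2.52 ± 0.127% over all genes (SD, n = 3 each).

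Promoters were searched for words known from cell-cycle genes, on both strands of the 250 bases before and 50 after each start in the RefSeq table for GRCh38.p14, which held 34 of the 38 genes (not RMI2, FANCI, NBN or RAD54B). The E2F word TTTCCCGC was in 3 of the 34 (FANCC, FANCD2 and XRCC2; 8.82%, against 3.14% of 10998 tested genes with a promoter in the table). TTTCGCGC was in FANCC alone (2.94%, against 1.06%), and TTTGGCGC in 0 (against 1.29%). The word TTTGAA of the CHR element was in 3 (8.82%, against 14.1%) and CCAAT in 15 (44.1%, against 43.3%). Only FANCC held both kinds of E2F word. Its window is shown because it carries the pair at the start used by FANCC-201, from 192 bases before that start (chr9:95317728-95317901, GRCh38.p14, minus strand, 5′ to 3′), with these E2F words or their reverse complements in capitals.
FANCC: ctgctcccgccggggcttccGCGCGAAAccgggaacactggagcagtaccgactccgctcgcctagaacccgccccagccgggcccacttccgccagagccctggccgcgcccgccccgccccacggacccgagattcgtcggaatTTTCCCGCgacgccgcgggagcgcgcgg
A match is a description of letters and not a bound site. The 3 genes with TTTCCCGC had log2 fold changes of 0.06 for FANCC, -0.02 for FANCD2 and -0.04 for XRCC2.

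Beyond the 38, a list of 76 other genes of double-strand break, crosslink and fork repair was read in the same fit. All 76 were tested, and 0 were called by edgeR with or without the replicate block. At an unadjusted p under 0.05, 7 were lower (9.21%, against 6.0% of all genes) and 2 higher (2.63%, against 5.37%). With the block 8 were lower (10.5%, against 10.3%) and 4 higher (5.26%, against 10.2%). The median log2 fold change was -0.02, with 44 lower and 32 higher. RECQL5, a helicase that restrains recombination, had 39.1, 44.1 and 38.6 CPM in control and 27.3, 26.2 and 33.3 CPM in siDDX5 libraries, a log2 fold change of -0.49 (SE 0.13, adjusted p 0.201; 0.06 with the block). RTEL1, a helicase that unwinds recombination loops and guards telomeres, had 26.4, 29.7 and 22.7 CPM in control and 19.4, 12.4 and 18.4 CPM in siDDX5 libraries, a log2 fold change of -0.65 (SE 0.18, adjusted p 0.235). The groups of RECQL5 and RTEL1 did not overlap, and DESeq2 called both, with adjusted p values of 0.045 and 0.0389. DESeq2 called 2.12% of all genes, so these 2 of 76 (2.63%) stood near the background.

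On the side that restrains resection, SHLD2 of the shieldin complex had 53.5, 60.7 and 49.1 CPM in control and 74.1, 69.4 and 64.7 CPM in siDDX5 libraries, a log2 fold change of 0.35 (SE 0.12, adjusted p 0.295). RPA2, which coats single-stranded DNA, had 75.0, 85.5 and 75.6 CPM in control and 62.3, 68.1 and 63.1 CPM in siDDX5 libraries (log2 fold change -0.29, SE 0.10). TIMELESS, a fork protection gene, had 124.6, 116.2 and 133.3 CPM in control and 104.9, 100.4 and 103.7 CPM in siDDX5 libraries (log2 fold change -0.28, SE 0.10). The groups of these 3 genes did not overlap, and none of the 3 passed the test. SLX1A, the nuclease partner of SLX4, had 18.4, 19.9 and 26.1 CPM in control and 16.7, 12.5 and 20.1 CPM in siDDX5 libraries, a log2 fold change of -0.38, while its near-identical copy SLX1B had 0.38, so the division of reads between the copies is uncertain.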

How the data were processed

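Messenger RNA of 3 control and 3 siDDX5 libraries of Rh30 cells was compared. The submitters' processing notes name bcl2fastq 2.20, FastQC 0.11.8, cutadapt 1.11, kallisto 0.46.0 and GRCh38, and the labels a stranded kit. The authors deposited 1 table per library, holding, per the file headers, estimated counts and TPM values by transcript; reads shared between transcripts are divided by estimation, with no estimate of that error in the tables. Transcripts were joined to genes with GENCODE release 29 by identifier, then symbol, then position in the table, which kept 99.59% to 99.63% of counts. Gene sums were rounded, filtered with filterByExpr, scaled with TMM and tested with edgeR 4.0.16 (glmQLFit, glmQLFTest; R 4.3.3) on the group alone; an adjusted p is by Benjamini-Hochberg over all genes tested, and usage was tested with diffSpliceDGE. CPM values are TMM-scaled. TPM serves for levels between genes, for group means where TPM is named, and for the alternative fits on TPM. A count of 3, taken as the floor, was 0.1147 to 0.1648 CPM. The steps were tested on simulated data.

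Same-numbered libraries deviated together, with correlations over genes of 0.209, 0.269 and 0.577 for replicates 1, 2 and 3. The replicate numbers come from the titles. A replicate block was therefore fitted as an alternative, and it is given where it changes a call. Log2 fold changes, SE values, intervals and p values are from the unpaired fit on the group alone, unless the block or another fit is named. The biological coefficient of variation was 15.7% without and 10.2% with the block.

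The 38 genes and all lists were chosen with earlier results of these data known. Given in full are genes called with or without the block, those with an unadjusted p under 0.05 and no overlap, the highest and lowest log2 fold change of each role, BRCA1, BRCA2, FANCD2, ATM and ATR, the 4 genes with the smallest usage p, and 6 other repair genes with the smallest adjusted p with the block. MRE11, RMI1, EME1, MCM3, MKI67 and KLC1 were added after their values were seen. Alternatives were DESeq2 1.42.0 (size factors, Wald test), other count filters, length-scaled TPM counts, limma-trend (limma 3.58.1) on log2(TPM + 1) and log2(TPM + 0.1), the block with and without GC offsets, the primary-assembly join, each library left out and, added after the data were seen, the sum of same-strand overlapping genes.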

Additional observations from a re-analysis of the deposited data

How the results depend on the processing

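The number of the 38 genes called was 0 in all alternatives but the replicate block with GC correction. That fit called 1 of them, PALB2, and 3.51% of all genes. Limma-trend called 1 gene in all with either pseudocount, and length-scaled TPM counts called 2. The fits without control replicate 1 and without siDDX5 replicate 1 called 0 of all genes. A 0 for any list in these fits therefore says little, and the same holds for the main fit, which called 25 genes in all. The count of other repair genes called was 0 except with the DESeq2 Wald test, which called 2. With the replicate block, the number of the 38 called for transcript usage was 2 instead of 1; it also called MCM3 among the proliferation genes, and it changed no other call among the results named. That number was 3 with no filter (FANCC, PALB2 and RAD54L), 0 with a mean of at least 50 counts, and 1 to 4 when each library was left out. FANCC was among them without either replicate 3 library only. RAD54L was among them without control replicate 1, 2 or 3 and without siDDX5 replicate 1. The shares over all genes in these usage fits are not given here. The median log2 fold change of the 38 genes was -0.13 with limma-trend on log2(TPM + 0.1), where the median of all genes was -0.05. In that fit 30 of the 38 were lower, against 58.4% of all genes. At an unadjusted p under 0.05, limma-trend with either pseudocount had 2 of the 38 lower (PALB2 and RAD50) and 0 higher. Over all genes 5.68% to 5.74% were lower by that rule and 2.73% to 2.81% higher. With length-scaled TPM counts 3 of the 38 were lower (BRCA1, PALB2 and RAD50), against 5.17% of all genes. Leaving out libraries gave medians of -0.10 to -0.02. Estimates near 0 changed sign for 10 of the 26 genes given in full, and none of those estimates was called. Length-scaled TPM counts gave 0.05 for BLM, 0.22 for FANCD2, -0.04 for FANCI and -0.06 for CHEK1. Limma-trend with either pseudocount gave -0.01 for RAD51B, -0.02 for FANCL, 0.17 for FANCD2, -0.10 for FANCI and -0.11 for CHEK1, and the block with GC correction gave -0.02 for FANCI. When 1 library was left out, the estimates ran from -0.01 to 0.13 for BARD1, -0.01 to 0.30 for NBN, -0.07 to 0.01 for BLM, -0.06 to 0.05 for FANCD2, -0.03 to 0.07 for FANCI, -0.08 to 0.16 for MUS81 and -0.20 to 0.03 for ATR. The other 16 genes kept their direction in every alternative. The cause of these changes was not tested. Each of the 38 genes had at least 66 estimated counts in every library, and a count of 0 for a transcript allows up to 3 counts.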
